A study of Mus musculus with 9 samples.

Results

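The genes that carry glucose into the cell, break it down to pyruvate and export lactate were followed in whole osteosarcoma tumors of genetically engineered mice. They are the glucose transporter gene Slc2a1, the hexokinases Hk1 and Hk2, the glycolytic enzymes Pfkp, Aldoa, Pgk1 and Pkm, the lactate dehydrogenase gene Ldha, and the lactate transporters Slc16a1 and Slc16a3. These 10 genes, of the 55367 listed, were selected by symbol, and earlier results of these data were known when they were chosen. Osteosarcoma is a malignant tumor of bone whose cells make bone matrix. Tumors of 2 models were sequenced. The 4 p53-driven tumors had the genotype Col2.3-Cre with a floxed Trp53 allele (Trp53 fl/+). The 5 Myc-knockin tumors carried Cre and the same floxed Trp53 allele together with c-MycT58A behind a Lox-Stop-Lox cassette, which Cre removes. Thus the groups share the Cre and the floxed Trp53 allele and differ by design in the Myc allele. The paper also reports a shorter median time to sacrifice for the Myc-knockin model. Genotype and age at collection therefore cannot be told apart here. The Col2.3 promoter drives Cre in osteoblasts, so the alleles were altered in that lineage, while RNA was taken from the whole tumor with its stroma, blood and any attached muscle. The labels give neither the age of the mice nor whether each tumor came from a mouse of its own, so that the p values measure the spread between these tumors only.

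Glycolysis converts glucose to pyruvate in the cytoplasm. Hexokinase traps glucose as glucose-6-phosphate, phosphofructokinase commits it to breakdown, phosphoglycerate kinase and pyruvate kinase make ATP, and lactate dehydrogenase reduces pyruvate to lactate, which leaves the cell through monocarboxylate transporters. Many tumors use this route even with oxygen at hand, and MYC and the hypoxia factor HIF1 are known activators of its genes. MYC binds with MAX to the E-box, the letters CACGTG.

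The paper describes oligo-dT enrichment of mRNA for the RNA-Seq libraries, and the deposited table holds raw read counts per gene. Total counts ranged from 2716322 to 17073285 per tumor. Expression is given here as normalized CPM, the read counts scaled to a common library size after correction by edgeR's TMM factor. The F columns of the table were taken as p53 driven and the M columns as Myc knockin. For M351, M9 and M664 the letter M alone gave the group. Some libraries stood apart. Satellite repeats took 23.2% to 81.0% of the counts in F187, M351, M408 and M9 and at most 0.0242% in the other 5. Rn7sk, a small nuclear RNA without a poly(A) tail, was at 5.33 CPM of the counts outside the satellites in M624 and 9.32 in M664. In the other 7 libraries it was at 8858 or more. The libraries thus differed in the content of this RNA, and whether all were enriched alike was not tested. M624 and M664 also had the highest total counts. Myc, the check of the labels, was higher in the Myc-knockin tumors (log2 fold change 3.41, standard error 0.59, adjusted p = 0.0217 by edgeR) and did not overlap between the groups. With F325, F331 or F368 left out its adjusted p was 0.0782 to 0.0909.

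RefSeq promoters, windows of 250 bases before and 50 bases after a transcript start on GRCm38.p6, were searched for CACGTG on both strands. All members had at least 1 window and some had more, and the match was present in 1 window each of Ldha and Slc16a1 only. The Aldoa windows lie in the aldolase gene proper and not at the gene counted under that symbol, as described below. The 3 matches are shown because they are the only CACGTG matches in the windows of the members, each with the bases around it and with CACGTG in capitals.
Ldha, chr7:46845647-46845676, + strand: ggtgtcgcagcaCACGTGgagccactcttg
Ldha, chr7:46845744-46845773, + strand: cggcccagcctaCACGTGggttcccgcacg
Slc16a1, chr3:104638452-104638481, + strand: gcggcgccgggtCACGTGgcgggaaggggg
The first capital lies at position -145 and -48 from the Ldha start and at -200 from the Slc16a1 start. Of all 32851 RefSeq promoter windows of the same length, 7.15% held CACGTG. The letters ACGTG or GCGTG, read on both strands as the core of the hypoxia response element, occurred in 43.8% of all windows. Each CACGTG also contains ACGTG. Every member had at least 1 window with ACGTG or GCGTG, and a window each of Aldoa, Hk1 and Pkm had none. Both shares over all promoters are per window, so a count per gene cannot be set against them. These matches describe the sequence and were not tested for binding.

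Across the members, 8 of the 9 that could be tested had a higher mean in the Myc-knockin tumors, Hk1 had a lower one, and none passed the test. Slc16a3, Pgk1 and Ldha had the largest positive log2 fold changes, 2.74, 2.55 and 2.10. The test was edgeR's quasi-likelihood test with p values adjusted over all 15365 genes tested, and calls needed a fold change over 1.5 as well as an adjusted p under 0.05. By this rule 0 of 9 members were called, where 2.26% of all tested genes were called higher and 3% lower. By unadjusted p under 0.05 the count was 8 of 9, with Hk2 the exception, against 26.8% of all genes. DESeq2 called 7 of the 9, Hk1 lower and Slc2a1, Pgk1, Pkm, Ldha, Slc16a1 and Slc16a3 higher, while it called 10.1% of all genes higher and 7.3% lower. Limma-voom with quality weights called 1, Hk1, lower, while it called 4.32% of all genes higher and 6.51% lower. The median log2 fold change of the 9 members was 1.61, and that of all tested genes was 0.14. Since RNA came from whole tumors, fewer cells of a type and less RNA per cell cannot be told apart in any of these values.

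**Figure D1:**
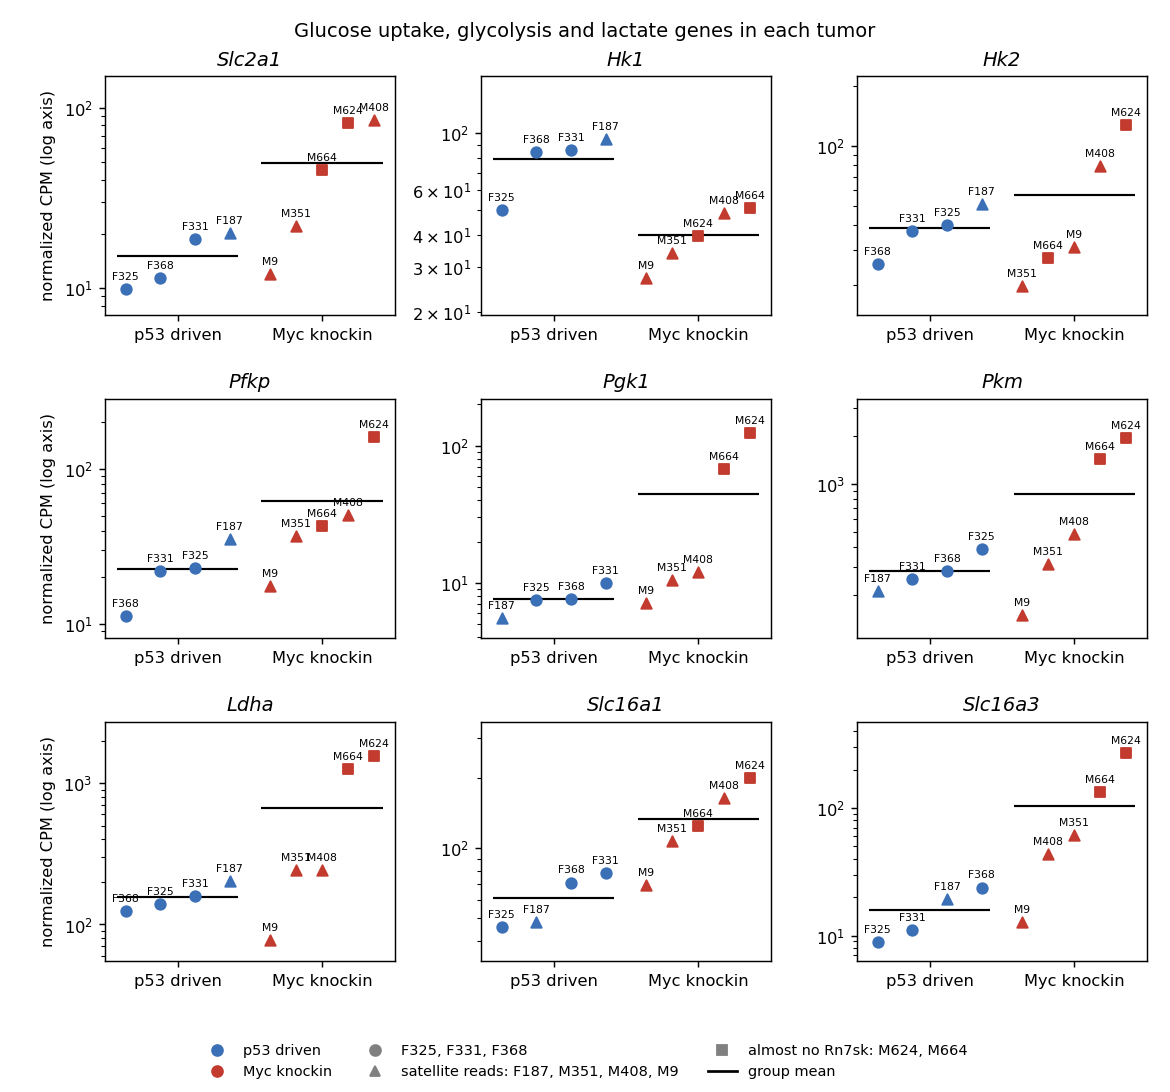
Normalized CPM on a log axis of the 9 tested genes in each of 4 p53-driven (blue) and 5 Myc-knockin (red) tumors, with the group mean as a line and libraries that stand apart as triangles or squares. For Slc2a1, Pfkp, Pgk1, Ldha, Slc16a1 and Slc16a3, all Myc-knockin tumors but M9 lie above the highest p53-driven tumor, and for Hk1 all p53-driven tumors but F325 lie above the highest Myc-knockin tumor.

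Slc2a1 encodes GLUT1, the transporter that brings glucose into most growing cells. The gene (ENSMUSG00000028645) lies on chromosome 4 of mm10 from 119108711 to 119137983. Slc2a1 was at 20.1, 9.88, 18.7 and 11.4 CPM in F187, F325, F331 and F368, and at 22.2, 85.3, 11.95, 82.0 and 45.2 CPM in M351, M408, M9, M624 and M664. The highest values were in M408 and M624, and M9 was the only Myc-knockin tumor that fell within the range of the p53-driven tumors. The mean was 49.3 ± 33.6 (SD, n = 5) CPM in Myc-knockin and 15.03 ± 5.13 (SD, n = 4) CPM in p53-driven tumors. The log2 fold change of Slc2a1 was 1.74 (standard error 0.55) with an edgeR adjusted p of 0.0773. When M624 and M664 were left out, Slc2a1 had a log2 fold change of 1.55 (adjusted p = 0.152).

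Hexokinase 1 and hexokinase 2 catalyse the same first step. Hk1 is the form of most resting tissues, and Hk2 is the form of muscle, fat and many tumors. Hk1 (ENSMUSG00000037012, chromosome 10, 62268855 to 62379908) was at 95.2, 49.9, 86.1 and 84.5 CPM in F187, F325, F331 and F368, and at 33.9, 48.5, 27.1, 39.7 and 50.8 CPM in M351, M408, M9, M624 and M664. Thus 3 of the 4 p53-driven tumors lay above every Myc-knockin tumor, and F325, the p53-driven tumor with the most muscle RNA, lay just under M664. The mean of Hk1 was 40.0 ± 9.92 (SD, n = 5) CPM in Myc-knockin and 78.9 ± 19.9 (SD, n = 4) CPM in p53-driven tumors, with a log2 fold change of -0.97 (standard error 0.28, adjusted p = 0.0659). Hk1 was the only member with a negative log2 fold change, and without M624 and M664 the value was -1.03 (adjusted p = 0.0954). Exons of Hk1 overlap the antisense gene Hk1os over 157 bases, and the strand setting of the counting is not given in the sources used here. Such overlaps are not particular to Hk1. Exons of Pfkp overlap Pitrm1 over 748 bases and those of Slc2a1 overlap Gm12868 over 105, both on the opposite strand. Exons of Pkm overlap Gm49759 over 767 bases on the same strand.

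Hk2 (ENSMUSG00000000628, chromosome 6, 82725025 to 82774454) was at 51.0, 40.0, 37.6 and 25.7 CPM in F187, F325, F331 and F368, and at 19.7, 79.5, 31.1, 128 and 27.3 CPM in M351, M408, M9, M624 and M664. Hk2 was high in M408 and M624 only, and the lowest value of all 9 tumors was also a Myc-knockin one. On the log2 scale its fold change of 0.59 (standard error 0.52, adjusted p = 0.503) was within the spread between tumors. The log2 ratio of Hk2 to Hk1 counts within a tumor was -0.90, -0.32, -1.19 and -1.72 in F187, F325, F331 and F368, and -0.77, 0.71, 0.20, 1.69 and -0.90 in M351, M408, M9, M624 and M664. Hk2 exceeded Hk1 in 3 of the 5 Myc-knockin tumors and in 0 of the 4 p53-driven tumors. The mean log2 ratio was higher by 1.22 in the Myc-knockin tumors (two-sided exact permutation test, p = 0.0794, 0.238 after adjustment over the 6 ratios examined, with 0.0159 the smallest p that 5 tumors against 4 can give).

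Pfkp encodes the platelet form of phosphofructokinase, the enzyme of the committed step. Pfkp (ENSMUSG00000021196, chromosome 13, 6579768 to 6648777) was at 35.2, 22.9, 21.8 and 11.3 CPM in F187, F325, F331 and F368, and at 36.9, 50.2, 17.5, 162 and 42.9 CPM in M351, M408, M9, M624 and M664. M624 stood alone at the top, M9 lay within the p53-driven range, and the other 3 Myc-knockin tumors lay just above it. For Pfkp the log2 fold change came to 1.47 (standard error 0.59, adjusted p = 0.139), and it was 0.72 (adjusted p = 0.326) without M624 and M664. In M9 the genomic background, estimated from reads on chemosensory receptor genes per kilobase of exon, amounted to 16.4 of the 22 counts on Pfkp, whose exons are the longest of the members. Of the counts on Pfkp in M624, the background made up 0.545 of 4244.

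The other phosphofructokinase genes were set beside Pfkp. Pfkl, the liver form, had a log2 fold change of 1.46 (adjusted p = 0.116), and Pfkm, the muscle form, one of -0.02 (adjusted p = 0.983). The mean log2 ratio of Pfkp to Pfkl was -0.23 ± 0.49 (SD, n = 5) in Myc-knockin and -0.27 ± 0.90 (SD, n = 4) in p53-driven tumors, a difference of 0.034 (exact permutation p = 0.984, also 0.984 after adjustment). The ratio of Pfkp to Pfkm differed by 1.09 (exact permutation p = 0.206, adjusted 0.310), with the 2 lowest ratios in F368 and F325 and the highest in M624.

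Aldoa, the aldolase of muscle and most other tissues, could not be followed. The symbol Aldoa in the table stands for ENSMUSG00000114515 (chromosome 7, 126800790 to 126809108, 799 exon bases), which lies directly upstream of the aldolase gene proper, ENSMUSG00000030695 (chromosome 7, 126795234 to 126800751), and the latter was not analysed here. The gene listed as Aldoa held 2, 16, 1 and 0 counts in F187, F325, F331 and F368, and 1, 2, 1, 43 and 17 counts in M351, M408, M9, M624 and M664. These counts were too low to pass the filter on low counts, so Aldoa was not tested. Of the intronless copies of the aldolase gene elsewhere in the genome, Aldoart1 held 21, 348, 148 and 78 counts in the p53-driven tumors and 10, 109, 12, 10 and 11 in the Myc-knockin tumors in the same order. Aldoart1 is thus highest in F325 of the p53-driven and in M408 of the Myc-knockin tumors, which were also highest in muscle creatine kinase.

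Pgk1 encodes phosphoglycerate kinase 1, which makes the first ATP of glycolysis. Pgk1 (ENSMUSG00000062070, chromosome X, 106187100 to 106203699) was at 5.53, 7.47, 9.95 and 7.66 CPM in F187, F325, F331 and F368, and at 10.5, 12.1, 7.17, 124 and 67.2 CPM in M351, M408, M9, M624 and M664. M624 and M664 were far above all the rest, the lower of them at 5.56 times the highest of the other 7 tumors. The mean of the other 3 Myc-knockin tumors was 9.91 ± 2.51 (SD, n = 3) CPM and that of the p53-driven tumors 7.65 ± 1.81 (SD, n = 4) CPM. The log2 fold change of Pgk1 over all 9 tumors was 2.55 (standard error 0.81, adjusted p = 0.0807), and without M624 and M664 it was 0.45 (adjusted p = 0.416).

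Pkm encodes pyruvate kinase of muscle and of growing cells. Its PKM1 and PKM2 forms differ by 1 exon, and counts per gene cannot separate them. Pkm (ENSMUSG00000032294, chromosome 9, 59656368 to 59679375) was at 212, 390, 251 and 281 CPM in F187, F325, F331 and F368, and at 311, 482, 149, 1949 and 1424 CPM in M351, M408, M9, M624 and M664. M624 and M664 were again the highest, the lower at 2.96 times the highest of the other 7, and M9 was the lowest of all tumors. For Pkm the log2 fold change came to 1.61 (standard error 0.69, adjusted p = 0.163) over all tumors and 0.22 (adjusted p = 0.762) without M624 and M664. Hnrnpa1, a splicing factor that acts on the Pkm transcript, is described below with the other genes of the pathway.

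Ldha encodes the lactate dehydrogenase subunit that favors the reduction of pyruvate. Ldha (ENSMUSG00000063229, chromosome 7, 46841475 to 46855627) was at 203, 140, 159 and 124 CPM in F187, F325, F331 and F368, and at 241, 242, 77.3, 1550 and 1251 CPM in M351, M408, M9, M624 and M664. M351 and M408 lay just above the p53-driven tumors, M9 lay below all of them, and the lower of M624 and M664 was at 5.18 times the highest of the other 7 tumors. Ldha had a log2 fold change of 2.10 (standard error 0.78, adjusted p = 0.117), and 0.32 (adjusted p = 0.640) without M624 and M664.

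Ldhb, the subunit that favors oxidation of lactate, had a log2 fold change of -0.02 (adjusted p = 0.987), with its highest value, 71.1 CPM, in M624 and its lowest, 5.31 CPM, in M408. The log2 ratio of Ldha to Ldhb counts was 2.79, 3.12, 2.45 and 2.84 in F187, F325, F331 and F368, and 4.76, 5.48, 2.75, 4.44 and 6.58 in M351, M408, M9, M624 and M664. In 4 of the 5 Myc-knockin tumors the ratio exceeded that of every p53-driven tumor, and in M9, with 97 counts on Ldha and 14 on Ldhb, it lay within their range. The mean difference was 2.00 (two-sided exact permutation p = 0.0635, adjusted 0.238). Without M624 and M664 the difference was 1.53 (p = 0.229, where 3 tumors against 4 cannot go below 0.0571 in the exact permutation test). M351 held 14 counts on Ldhb, so that its ratio also rests on few reads of Ldhb.

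Slc16a1 and Slc16a3 encode the monocarboxylate transporters MCT1 and MCT4. MCT1 carries lactate both ways, and MCT4 exports it from strongly glycolytic cells. Slc16a1 (ENSMUSG00000032902, chromosome 3, 104638668 to 104658462) was at 48.2, 45.8, 78.3 and 71.2 CPM in F187, F325, F331 and F368, and at 108, 164, 69.3, 200.1 and 124 CPM in M351, M408, M9, M624 and M664. The 4 Myc-knockin tumors other than M9 lay above every p53-driven tumor, and the values of M624 and M664 were not set apart from those of M351 and M408. Slc16a1 had a log2 fold change of 1.13 (standard error 0.34, adjusted p = 0.0724), and 0.98 (adjusted p = 0.125) without M624 and M664.

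Slc16a3 (ENSMUSG00000025161, chromosome 11, 120948480 to 120960868) was at 19.4, 8.87, 11.1 and 23.8 CPM in F187, F325, F331 and F368, and at 61.6, 44.0, 12.7, 270.1 and 132 CPM in M351, M408, M9, M624 and M664. M9 was again the only Myc-knockin tumor within the p53-driven range, and 6.52 of its 16 counts on Slc16a3 were matched by the estimated genomic background. Slc16a3 had the largest log2 fold change of the members, 2.74 (standard error 0.75, adjusted p = 0.0558), and 1.41 (adjusted p = 0.132) without M624 and M664. The log2 ratio of Slc16a1 to Slc16a3 was positive in all p53-driven tumors, from 1.31 to 2.82, and negative in M624 and M664, at -0.43 and -0.09. The mean difference of this ratio was -1.10 (exact permutation p = 0.175, adjusted 0.310), and -0.31 without M624 and M664.

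The order of the members by level was read per kilobase of exon, since longer transcripts collect more reads. The length used joined all annotated exons of a gene, 13401 bases for Pfkp and 2244 for Pgk1, and can exceed that of a transcript. Reads on copies were not added, and Pgk1 has copies of up to 100% identity. The order thus depends on these lengths and counts, and other lengths were not tried. In p53-driven tumors Pkm was highest at 56.7 ± 15.3 CPM per kilobase (SD, n = 4), followed by Ldha at 47.3 ± 10.2, which did not differ from Pkm beyond their spread. Slc16a1 followed at 13.8 ± 3.69 CPM per kilobase, Hk1 at 9.25 ± 2.34 and Hk2 at 6.46 ± 1.74. Slc2a1 at 4.29 ± 1.46, Pgk1 at 3.41 ± 0.81 and Slc16a3 at 2.97 ± 1.32 CPM per kilobase lay within each other's spread, and Pfkp was lowest of the tested members at 1.70 ± 0.73. In Myc-knockin tumors Ldha at 203 ± 204 and Pkm at 173 ± 157 CPM per kilobase (SD, n = 5) were the highest, and Hk1 at 4.69 ± 1.16 and Pfkp at 4.62 ± 4.26 were the lowest of the tested members. This order differed by library. In M624 and M664 the mean of Ldha was 423 and that of Pkm 337 CPM per kilobase, and Hk1 at 5.30 lay below Pfkp at 7.63. In the other 3 Myc-knockin tumors Ldha was at 56.4 and Pkm at 62.8 CPM per kilobase, and Pfkp at 2.60 lay below Hk1 at 4.28.

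The members differed in how far M624 and M664 stood from the other tumors. Both tumors lay at 2 times the highest of the other 7 or more for 4 of the 9 members, Pgk1, Pkm, Ldha and Slc16a3, where this was so for 3.77% of all tested genes. Of the 92 other pathway genes tested, 6 had this pattern, the glycolytic enzymes Eno1 and Pgam1, the pentose phosphate enzyme Pgls, and Vhl, Bnip3 and Ankrd37 of the HIF1 pathway, a description made after their values were seen. For Eno1, enolase, the lower of the pair was at 5.38 times the highest of the other 7, and its log2 fold change was 2.15 (adjusted p = 0.0967) over all tumors and 0.34 (adjusted p = 0.415) without the pair. By contrast the log2 fold changes of Slc2a1, Hk1, Hk2 and Slc16a1 moved by less than their standard errors when the pair was left out. Without the pair 0 of 9 members were called by edgeR, where 1.8% of 14308 genes were called higher and 2.81% lower, and the median log2 fold change of the members was 0.45. Without the 4 libraries rich in satellite reads, which leaves M624 and M664 against 3 p53-driven tumors, 7 of the members were called higher, where 15.7% of 16495 genes were called higher and 12.1% lower. Then the log2 fold changes were 3.33 for Ldha, 3.53 for Pgk1 and 3.81 for Slc16a3. In these calls the genotype and the near absence of Rn7sk, which sets both Myc-knockin libraries apart from the 3 p53-driven ones, cannot be told apart.

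**Figure D2:**
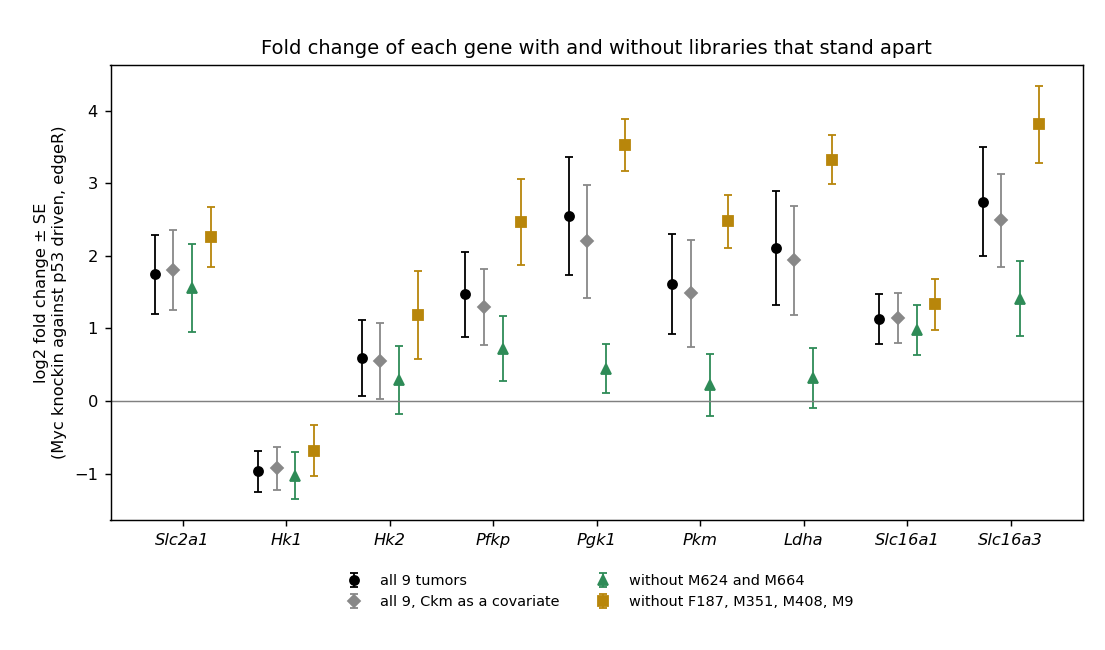
The log2 fold change of each tested member with its standard error, Myc knockin against p53 driven, fitted over all 9 tumors, with Ckm as a covariate, without M624 and M664, and without the 4 libraries rich in satellite reads. Without M624 and M664 the values of Pgk1, Pkm and Ldha lie between 0.22 and 0.45, while those of Slc2a1, Hk1 and Slc16a1 hardly move.

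M9 had the opposite place. For 6 of the 9 members it was the only Myc-knockin tumor not above the highest p53-driven one. At least 4 of the 5 Myc-knockin tumors lay above all p53-driven ones for 15.6% of all tested genes, whichever tumor was the exception. The share with M9 as the exception was not counted. All 5 lay above for 0 members, where this was so for 5.41% of all tested genes. M9 had 671790 counts outside the satellites, the fewest of all, and was lowest of the 9 tumors for Hk1, Pkm and Ldha. With M9 left out edgeR called 5 members higher, Slc2a1, Pgk1, Ldha, Slc16a1 and Slc16a3, where 6.03% of 15315 genes were called higher and 4.34% lower. Leaving out any other single tumor gave 0 members, but without F325, F331 or F368 only 5 to 8 genes of the whole table were called, so that the 0 there says nothing of the members.

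Many glycolytic enzymes have processed copies in the mouse genome that can share their reads. Annotated transcripts at other loci that match at 90% or more over at least 300 bases numbered 13 for Ldha, 8 for Pkm, 4 for Pgk1, 6 for Eno1 and 177 for Gapdh, and 0 for Slc2a1, Hk1, Hk2, Pfkp, Slc16a1 and Slc16a3. The copies of Pkm took 3.40% of the sum of gene and copies in M624 and 3.41% in M664, against 15% to 17.9% in the other 7 tumors. For Ldha the copies took 0.679% to 0.889% in this pair and 7.03% to 18.5% in the others. Thus for Pkm and Ldha the share of reads on the copies moved with the same pair of tumors. This was not so for Pgk1, with 15.2% in M624 and 15.8% in M664 against 5.97% to 35.7% in the others. For Eno1 the share was 32.8% in M624 and 32.2% in M664, against 32.5% to 36.2% in the others. With the copies added to the gene, the log2 fold change was 1.44 for Pkm, 2.03 for Ldha and 2.65 for Pgk1, and 0 members were called. Gapdh, the enzyme often used as a reference, held 2 to 343 counts, with 67.3% to 99.3% of the sum on copies, and its log2 fold change of 0.84 (adjusted p = 0.350) is uncertain for this reason.

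Skeletal muscle is rich in glycolytic enzymes, so the muscle content of each tumor was read from Ckm, muscle creatine kinase. Ckm was at 0.395, 276, 1.38 and 12.04 CPM in F187, F325, F331 and F368, and at 4.92, 97.1, 24.7, 0.0381 and 17.2 CPM in M351, M408, M9, M624 and M664. F325 and M408, 1 tumor of each group, held most of the muscle RNA, and the values in F187 and M624 rest on 1 count each. The log2 fold change of Ckm was -1.33 (standard error 1.61, adjusted p = 0.630), and without F325 it was 2.57 (adjusted p = 0.411), so that its sign rests on this tumor. The summed level of 21 skeletal muscle genes ranged from 70.6 to 10575 CPM in Myc-knockin and from 192 to 18059 CPM in p53-driven tumors. Of the 20 muscle genes tested 0 were called by edgeR, DESeq2 or limma-voom, 0 had an unadjusted p under 0.05, and 16 had a negative log2 fold change.

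The muscle forms of the glycolytic and glycogen enzymes had their highest levels in F325. Pygm, muscle glycogen phosphorylase, was at 158 CPM in F325 and 55.1 CPM in M408 and at most 19.1 CPM in the other 7 tumors. Pgam2, muscle phosphoglycerate mutase, was at 22.5 CPM in F325, 13.2 CPM in M408 and at most 7.17 CPM in the others. Eno3, muscle enolase, was at 67.7 CPM in F325 but also at 56.4 CPM in M664 and 51.1 CPM in M351, so it did not follow Ckm alone. None of the 3 was called, with log2 fold changes of -1.38 for Pygm, -0.29 for Pgam2 and 0.33 for Eno3.

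Among the members, Pkm in F325 and M408 was the highest of the 7 tumors other than M624 and M664, at 390 and 482 CPM. Pkm and Ldha were highest of all in M624, where 3 of the 21 muscle genes were at 0 and Ckm had 1 count. The part of muscle RNA in these levels was not tested. With the log2 level of Ckm as a covariate in the fit, 0 members were called, and the log2 fold change was 1.48 for Pkm, 1.94 for Ldha, 2.49 for Slc16a3 (adjusted p = 0.0540) and -0.92 for Hk1. Leaving the muscle, globin and mitochondrial genes out of the table also gave 0 calls among the members.

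**Figure D3:**
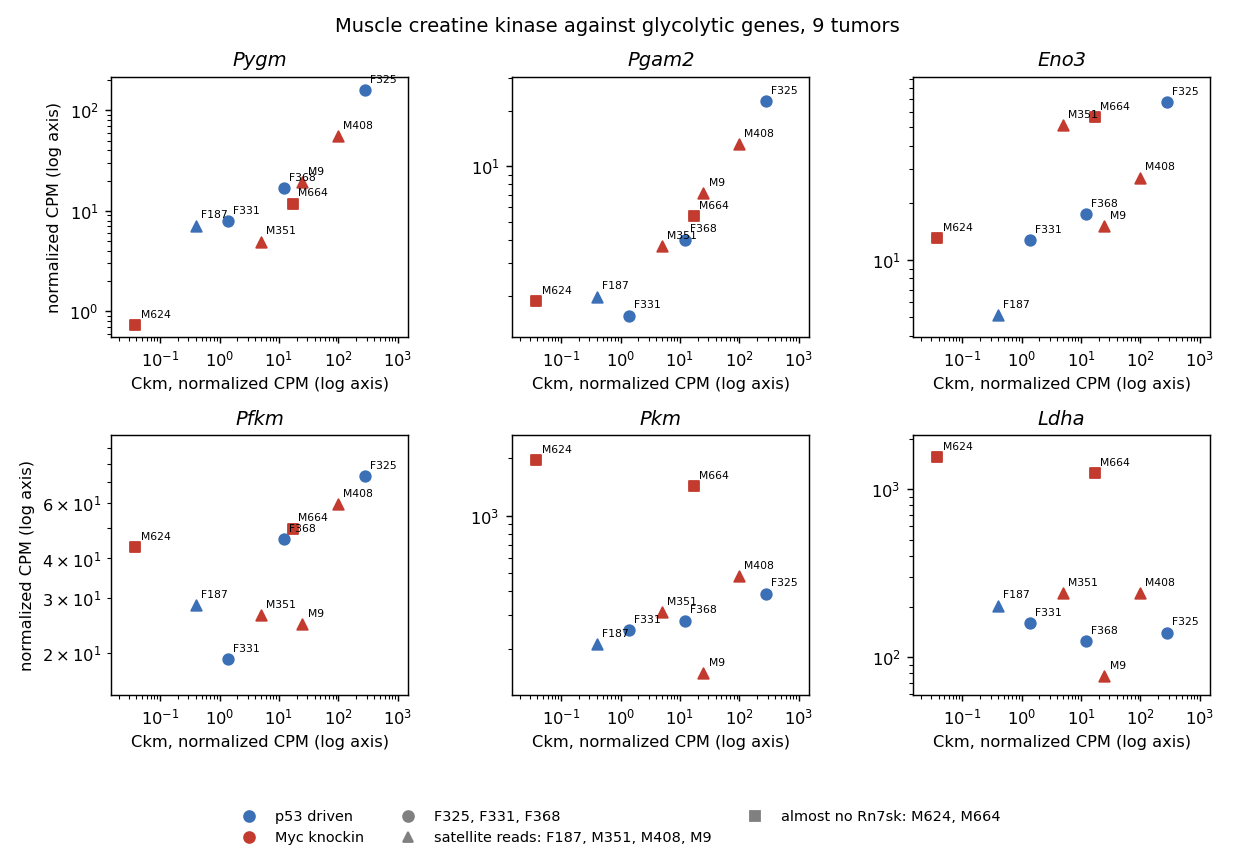
Normalized CPM of Ckm (horizontal, log axis) against 6 glycolytic and glycogen genes (vertical, log axis) in each tumor, blue for p53 driven and red for Myc knockin. Pygm and Pgam2 are highest in F325 and M408, the tumors with most Ckm. Pkm and Ldha are highest in M624 and M664, at 0.0381 and 17.2 CPM of Ckm.

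Markers of other cell types in bone tumors were summed in the same way. The summed level of 8 osteoclast genes was 124 to 2570 CPM in Myc-knockin and 2716 to 14151 CPM in p53-driven tumors. Of the 8, 6 were called lower by edgeR, where 3% of all tested genes were called lower. The sum of 10 osteoblast genes was 3610 to 41295 CPM in Myc-knockin and 65477 to 141257 CPM in p53-driven tumors with 2 called lower, Bglap and Bglap2. The sum of 10 macrophage genes was 368.1 to 1204 CPM in Myc-knockin and 926 to 1616 CPM in p53-driven tumors. Of these 10 genes 3 were called lower, Cd68, Csf1r and Tyrobp. In all 8 had a negative log2 fold change and 2 a positive one, C1qa at 0.17 and C1qb at 0.56. The sum of 7 endothelial genes was 92.4 to 486 against 348 to 495 CPM. Of these 7 genes 0 were called by edgeR, DESeq2 or limma-voom, and 1 had an unadjusted p under 0.05. The sum of 7 red cell genes was highest in M664 at 784 CPM and in M624 at 217 CPM and at most 46.9 CPM in the other 7, where 3 or 4 of these 7 genes were at 0. The part of these cell types in the levels of Hk1 and of the other members was not tested.

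The remaining genes of glucose, pyruvate and lactate metabolism were followed in 103 genes of 11 lists, of which 92 were tested. Of these, 1 was called higher and 4 lower, where 5.27% of all tested genes were called either way, and their median log2 fold change was 0.13. The 4 genes that fell were Slc2a10 and Slc2a13 of the glucose transporter family, the lactate transporter gene Slc16a7 and P4ha1, and the gene that rose was Hnrnpa1. None of these 5 calls held without M624 and M664, where their adjusted p ran from 0.0534 to 0.0912. Their log2 fold changes were then -2.10 for Slc2a10, -1.51 for Slc2a13, -1.76 for Slc16a7, -1.75 for P4ha1 and 1.12 for Hnrnpa1. The count over the lists was 0 without F325, F331 or F368, where at most 8 genes of the whole table were called, 1 without F187 or M624, 2 without M351, 3 without M664 and 8 without M9.

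Slc2a13, which encodes a proton-coupled myo-inositol transporter, was at 27.6, 56.0, 50.7 and 51.7 CPM in F187, F325, F331 and F368, and at 17.9, 9.16, 22.3, 3.70 and 8.68 CPM in M351, M408, M9, M624 and M664. The groups did not overlap, as for 13% of all tested genes, and the log2 fold change of Slc2a13 was -2.0 (adjusted p = 0.0398). Slc2a10, which encodes GLUT10, was at 16.98, 30.6, 16.0 and 31.7 CPM in the p53-driven tumors and at 8.0, 2.01, 7.97, 2.48 and 8.90 CPM in the Myc-knockin tumors in the same order, with a log2 fold change of -2.07 (adjusted p = 0.0416). Both transporters were thus lower in every Myc-knockin tumor, while Slc2a3, which encodes the neuronal glucose transporter GLUT3, had a log2 fold change of 2.07 (adjusted p = 0.103) and reached 240 CPM in M664. Over the 9 other glucose transporter genes, 7 were tested, 2 were called lower and the median log2 fold change was 0.26. The log2 ratio of Slc2a1 to Slc2a3 ranged from -2.41 in M664 to 1.44 in M408, and its mean difference between the groups was -0.28 (exact permutation p = 0.762, adjusted 0.914).

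Slc16a7 encodes MCT2, a monocarboxylate transporter of high affinity. Slc16a7 was at 55.3, 45.8, 85.03 and 30.9 CPM in F187, F325, F331 and F368, and at 17.9, 8.24, 22.3, 7.70 and 5.79 CPM in M351, M408, M9, M624 and M664. It was lower in all Myc-knockin tumors, with a log2 fold change of -2.21 (adjusted p = 0.0287), whereas the values of Slc16a1 and Slc16a3 were higher in 4 of 5. Bsg, the chaperone that brings MCT1 and MCT4 to the membrane, had a log2 fold change of -0.34 (adjusted p = 0.644). Of the 5 other lactate genes tested 1 was called lower and 4 had a negative log2 fold change.

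P4ha1 encodes a subunit of prolyl 4-hydroxylase, which modifies collagen, and is a known HIF1 target. P4ha1 was at 359, 246, 492 and 607 CPM in F187, F325, F331 and F368, and at 186.5, 104, 74.9, 108 and 170 CPM in M351, M408, M9, M624 and M664. It was below every p53-driven tumor in all 5 Myc-knockin tumors, with a log2 fold change of -1.73 (adjusted p = 0.0320). The sum of the osteoblast genes was lower in the same tumors, and its part in P4ha1 was not tested. Over the 12 other HIF1 targets 7 had a positive and 5 a negative log2 fold change, and their median was 0.11. Hif1a itself had a log2 fold change of -0.30 (adjusted p = 0.615) and was not called.

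Hnrnpa1 was at 25.7, 45.4, 40.5 and 34.8 CPM in F187, F325, F331 and F368, and at 61.6, 116, 48.6, 176 and 145 CPM in M351, M408, M9, M624 and M664. It was higher in every Myc-knockin tumor, M9 included, with a log2 fold change of 1.59 (adjusted p = 0.0468). Among the 15 regulators tested it was the only one called by edgeR. DESeq2 called Hnrnpa1 higher and Epas1 lower, and limma-voom called Epas1 and Txnip lower and not Hnrnpa1 (adjusted p = 0.0575). Txnip, which restrains glucose uptake, had a log2 fold change of -0.51 (adjusted p = 0.471) by edgeR and -0.98 (adjusted p = 0.0429) by limma-voom. Epas1, the gene of the hypoxia factor HIF2A, is named because other tools called it.

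The other 7 lists had 0 calls by edgeR among 53 tested genes, where 5.27% of all tested genes were called. Of the 53, 9 had an unadjusted p under 0.05, against 26.8% of all tested genes. DESeq2 called 4 and limma-voom 1, against 17.4% and 10.8% of all tested genes. Of the 11 other glycolytic enzymes tested 9 had a positive log2 fold change and the median was 0.84. The 7 pentose phosphate enzymes had a median of 0.56 with 6 positive, and the 12 genes that bring pyruvate into mitochondria had 6 positive and 6 negative values. Pdk1, the kinase that shuts off pyruvate dehydrogenase, had a log2 fold change of 0.64 (adjusted p = 0.229). Of the 13 glycogen genes 10 had a negative log2 fold change and the median was -0.46. Hk3, the hexokinase of myeloid cells, had a log2 fold change of 1.03 (adjusted p = 0.301). The 5 genes of PFK2 and Tigar had a median of 0.40 and the 4 tested genes of gluconeogenesis a median of 0.16.

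**Figure D4:**
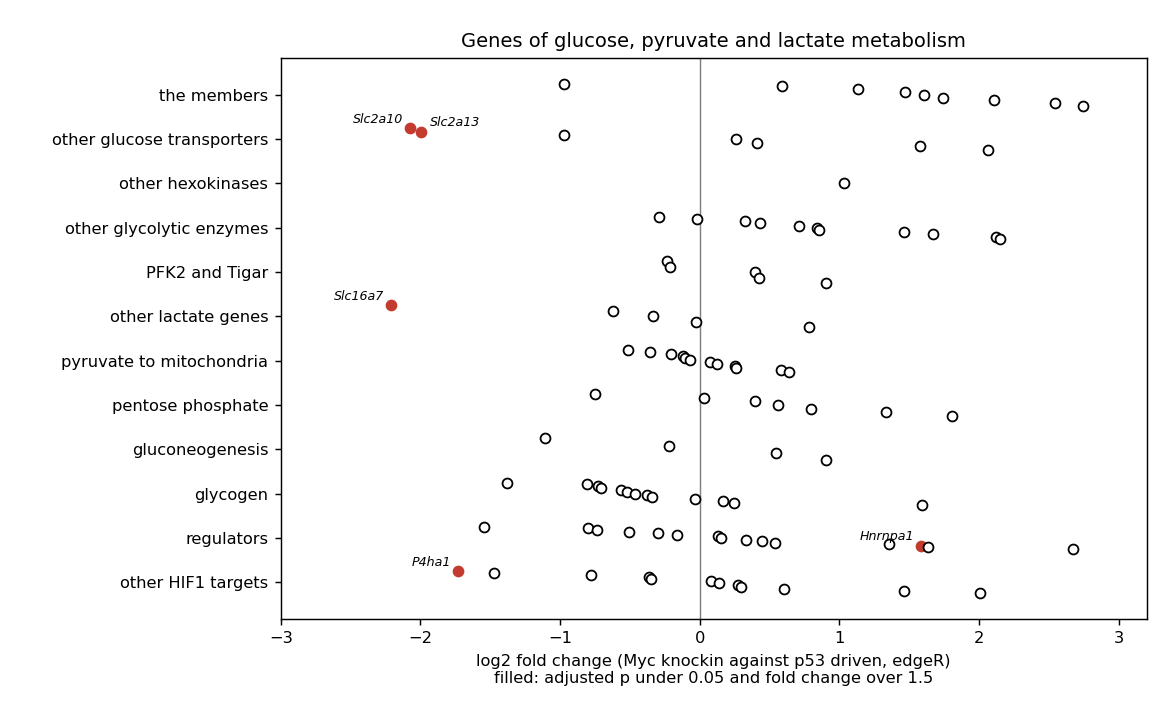
The log2 fold change (horizontal) of each tested gene in the member list and 11 other lists of glucose, pyruvate and lactate metabolism, Myc knockin against p53 driven, with filled points for genes called by edgeR. Of the 9 members, 8 lie to the right of 0 with none filled, and 5 of the 92 other genes are filled.

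**Figure D5:**
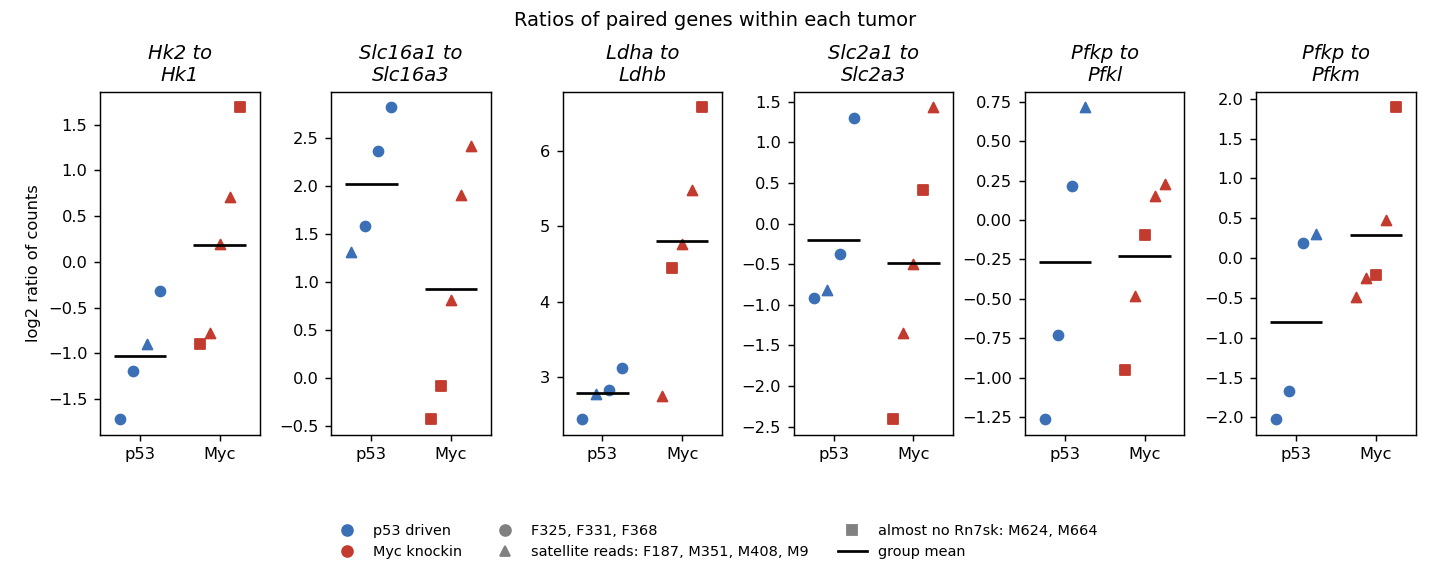
The log2 ratio of counts of paired genes within each tumor, with the group mean as a line, for 4 p53-driven (blue) and 5 Myc-knockin (red) tumors. The ratio of Ldha to Ldhb is 4.44 or more in the Myc-knockin tumors other than M9 and at most 3.12 in the p53-driven tumors.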

How the data were processed

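RNA-Seq of whole tumors was analysed in 4 p53-driven and 5 Myc-knockin tumors of mice. Per the submitters' notes the authors trimmed reads with Trim Galore, aligned them to mm10 with STAR and ran featureCounts, and the deposited values are raw counts of 55367 genes. The strand setting and the treatment of reads with several matches are not given in the sources used here. The columns of the table do not name single samples, and each tumor entered only under its group.

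Genes were tested in R 4.3.3 with edgeR 4.0.16 (TMM, filterByExpr with a minimum count of 10, glmQLFit and glmQLFTest), and p values were adjusted by Benjamini and Hochberg over 15365 genes. Calls needed a fold change over 1.5 with an adjusted p under 0.05. Log2 ratios of counts, with 0.5 added, were compared by two-sided exact permutation tests. The floor of 3 counts ranged from 0.114 to 2.39 CPM and covers counting error only. Gene positions and lengths came from GENCODE M21 on mm10, promoters from RefSeq, and copies from blast 2.17.0.

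The text names all 10 members, Ckm and the muscle list, Myc, every other pathway gene called, and Gapdh, Eno1, Ldhb, Slc2a3, Pfkl, Pfkm, Hk3, Bsg, Hif1a, Txnip, Pdk1, Eno3, Pgam2 and Pygm. Members and lists were chosen with earlier results of these data known. Alternatives were DESeq2 1.42.0, limma-voom 3.58.1, other scalings and filters, genes or libraries left out, Ckm as a covariate, background subtracted, copies added and other thresholds. The copies matched by sequence were added after seeing the data.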

Additional observations from a re-analysis of the deposited data

Results flagged for a closer look

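In 36 groups of 4 or 5 tumors checked with Dixon's test, 3 held a value far from the others, and chance gives about 1 in 20 groups. Pfkp in M624 was at 161.7 CPM, and the next of the Myc-knockin tumors was at 50.2 CPM. Ckm in F325 was at 276.1 CPM, and the next of the p53-driven tumors was at 12.04 CPM. Ckm in M408 was at 97.1 CPM, and the next of the Myc-knockin tumors was at 24.7 CPM. Thus the muscle content stood out in 1 tumor of each group.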

How the results depend on the processing

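Depth limits the tumors with satellite reads most, where 671790 to 3300482 counts lay outside the satellites. The number of members called, 0 of 9 with edgeR, was 0 to 5 with each tumor left out in turn, with 5 without M9, and it was also 0 with library size alone, without satellite genes, without muscle, globin and mitochondrial genes, with Ckm as a covariate, without M624 and M664, and with copies added. It was 2 with upper-quartile normalization, where 6.32% of all tested genes were called, 1 with all genes of at least 1 count (1.04%), 3 with at least 10 counts in every tumor (14.2%), 7 with DESeq2 (17.4%), 1 with limma-voom (10.8%), 7 without the 4 libraries with satellite reads (27.9%), 2 with the background subtracted (7.86%) and 5 at an adjusted p under 0.1 (14.6%). Without M9 10.4% of all genes were called, and without F325, F331 or F368 at most 0.0498%. The pathway count, 5 with edgeR, was 3, 2, 3, 13 and 8 with upper-quartile normalization, library size alone, all genes of at least 1 count, DESeq2 and limma-voom. It was 1 without M624 and M664, 27 without the 4 libraries with satellite reads, 10 at an adjusted p under 0.1, and 0 to 8 when single tumors were left out, namely 0 without F325, F331 or F368, 1 without F187 or M624, 2 without M351, 3 without M664 and 8 without M9. Over all tested genes, 809 calls became 5 without F368 and 4595 without the 4 libraries with satellite reads. Higher and lower calls numbered 348 and 461 with TMM, and 626 and 345 with upper-quartile normalization. The median log2 fold change of all genes moved from 0.14 to 0.03 with library size alone and to 0.97 with all genes of at least 1 count.

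Of the 9 tested members 8 kept their direction under every alternative run, and Hk2 turned to -0.090 with limma-voom. Ckm ran from -2.68 to 2.57 with each tumor left out and was positive only without F325. The difference in the log2 ratio of Slc2a1 to Slc2a3 was 0.061 without M624 and M664, and ran from -0.76 to 0.22 with each tumor left out. That of Pfkp to Pfkl was -0.29 with the background subtracted and ran from -0.30 to 0.36 with each tumor left out. Myc lost its call with library size alone (adjusted p = 0.0659 by edgeR) and without F325, F331 or F368 (0.0782 to 0.0909). The causes of these changes were not tested. No paired analysis was possible because the columns of the table carry no replicate numbers.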
